A study of Mus musculus with 51 samples.

Results

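Ribosome biogenesis genes were followed as a set of 38 listed genes across 4 blood-forming cell populations of Mll-AF9 knock-in and wild-type mice. Each gene was represented by 1 probe set, the one with the highest mean over all replicates, and 36 of the 38 were measured, among 18193 genes in all. Npm3 had no probe set with a single gene in the annotation used here, and the probe set of Mrto4 is also assigned to pseudogenes. The level of neither was therefore analysed. All 36 measured genes lay above the background level of 4.62 (log2) in all 8 groups, and none was lost to a filter on low values.

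Ribosomes are built in the nucleolus, where RNA polymerase I copies the ribosomal DNA into a long precursor RNA. Small nucleolar ribonucleoproteins (snoRNPs) modify that precursor and help to cut it, and large sets of assembly factors fold and trim the pieces into the small and the large ribosomal subunit. Growing cells demand many ribosomes, MYC is the best-known activator of these genes, and in blood formation the rate of protein synthesis is known to be low in stem cells and higher in progenitors.

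The study asked which genes differ between Mll-AF9 cells and wild-type cells of the same population. In Mll-AF9, a fusion found in acute myeloid leukaemia, the front of a histone methyltransferase (Mll) is joined to Af9, and a knock-in places it at the mouse Mll gene under that gene's own control. Total RNA of cells sorted by flow cytometry from whole bone marrow was amplified by a 2-cycle labelling reaction and measured on 51 Affymetrix arrays. After repeat runs were averaged, the groups were 4 Mll-AF9 and 5 wild-type replicates of granulocyte-macrophage progenitors (GMP), 4 and 5 of common myeloid progenitors (CMP), 7 and 8 of common lymphoid progenitors (CLP), and 5 and 5 of haematopoietic stem cells (HSC). No group received an agent, and the sources used here give no age, sex, strain background or zygosity and no number of mice per replicate. Replicates may therefore be technical, in which case p-values measure only the spread between these samples.

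Marker genes were used to check the names of the sorted populations. The 5 measured genes of granule proteins averaged 12.65 in Mll-AF9 GMP and 12.60 in wild-type GMP, and between 8.15 and 9.43 in the other groups. The 6 measured erythroid and megakaryocyte genes averaged 10.05 in Mll-AF9 CMP and 9.98 in wild-type CMP, against 7.47 in Mll-AF9 HSC and 7.45 in wild-type HSC. In GMP they averaged 5.83 in Mll-AF9 and 6.14 in wild type. In CLP they averaged 7.51 in Mll-AF9 (replicates 5.98 to 8.99) and 7.19 in wild type (5.91 to 8.24). Some CLP replicates were thus raised, though below the lowest CMP replicate at 9.72. The 6 stem cell genes averaged 8.63 in Mll-AF9 HSC and 8.09 in wild-type HSC, between 4.62 and 6.16 in GMP and CMP, and 7.96 in Mll-AF9 CLP and 7.82 in wild-type CLP. The CLP replicates (7.14 to 8.92 in Mll-AF9, 6.85 to 8.62 in wild type) overlapped those of HSC (8.21 to 9.13 in Mll-AF9, 7.66 to 8.53 in wild type), so these genes did not set HSC apart from CLP. The 7 lymphoid genes averaged 7.09 in Mll-AF9 CLP and 8.12 in wild-type CLP. In Mll-AF9 CLP, 5 of 7 T and NK cell genes lay above background, against 3 of 7 in wild-type CLP. Some features set libraries apart. CMP intensities were deposited with up to 9 decimals and all others with up to 2. Separate processing of the CMP arrays is therefore possible, and for every comparison with CMP the population and the processing cannot be told apart. All 20 Mll-AF9 replicates lacked signal from Y-linked genes, as did 9 of the 23 wild-type replicates. In 7 replicates the 3' minus 5' difference of control transcripts, a sign of RNA quality, was above 4 (log2). In wild type they were GMP replicates 1 and 2 and HSC replicate 1. In Mll-AF9 they were CLP replicates 1, 3 and 4 and HSC replicate 5. The mean of this difference was 4.18 in Mll-AF9 CLP and 3.69 in wild-type CLP. For 8 samples titled CLP the source name said CMP. These were all 7 Mll-AF9 CLP samples and wild-type CLP replicate 1. They were grouped by title, so in CLP this conflict of labels largely goes with genotype.

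The promoter stretches of 2 members are shown because CACGTG, the E-box that MYC binds with MAX, is the textbook link between MYC and its target genes. In the 250 bases before the start of transcription, CACGTG, which reads the same on both strands, stood in 2 of 34 listed members with a promoter in the RefSeq table (build GRCm38.p6), or 5.88%. These 34 include Npm3 and Mrto4, whose levels were not analysed. The share among 17491 protein-coding genes was 7.61%. Each stretch below runs 5' to 3' on the plus strand, with the motif in capitals. It lies 121 bases before the start of Imp4 (chr1:34439678-34439743) and 60 bases before the start of Nop2 (chr6:125131793-125131858).
Imp4: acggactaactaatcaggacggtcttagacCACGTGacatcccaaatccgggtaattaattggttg
Nop2: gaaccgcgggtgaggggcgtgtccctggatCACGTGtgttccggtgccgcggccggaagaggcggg
A match is a run of letters and shows no binding, and its absence from the promoters of the other members says nothing about the factor.

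Ribosome biogenesis genes were highest in CMP, intermediate in GMP, and lowest in CLP and HSC in both genotypes. The mean log2 level over the 36 genes was 9.23 ± 0.04 in Mll-AF9 CMP (SD, n = 4) and 9.28 ± 0.05 in wild-type CMP (n = 5). In GMP it was 8.69 ± 0.08 in Mll-AF9 (n = 4) and 8.90 ± 0.24 in wild type (n = 5). In CLP it was 8.30 ± 0.14 in Mll-AF9 (n = 7) and 8.27 ± 0.28 in wild type (n = 8), and in HSC 8.43 ± 0.12 in Mll-AF9 and 8.39 ± 0.31 in wild type (n = 5 each). The lowest CMP replicate of either genotype, at 9.18, lay above the highest CLP replicate at 8.75 and the highest HSC replicate at 8.78. CLP and HSC replicates overlapped in both genotypes, and so did Mll-AF9 and wild type in every population. Wild-type GMP replicates (8.57 to 9.21) overlapped those of wild-type HSC and CLP. Mll-AF9 GMP replicates (8.58 to 8.75) lay above those of Mll-AF9 HSC and CLP. In sorted bulk samples, fewer cells of a type and less RNA per cell cannot be told apart. Gene by gene, CMP held the highest mean for 28 of 36 members in Mll-AF9 and 25 in wild type, and GMP for the other 8 and 11. CLP held the lowest mean for 21 members in each genotype. HSC held it for 8 in Mll-AF9 and 11 in wild type, and GMP for 7 and 4.

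**Figure D1:**
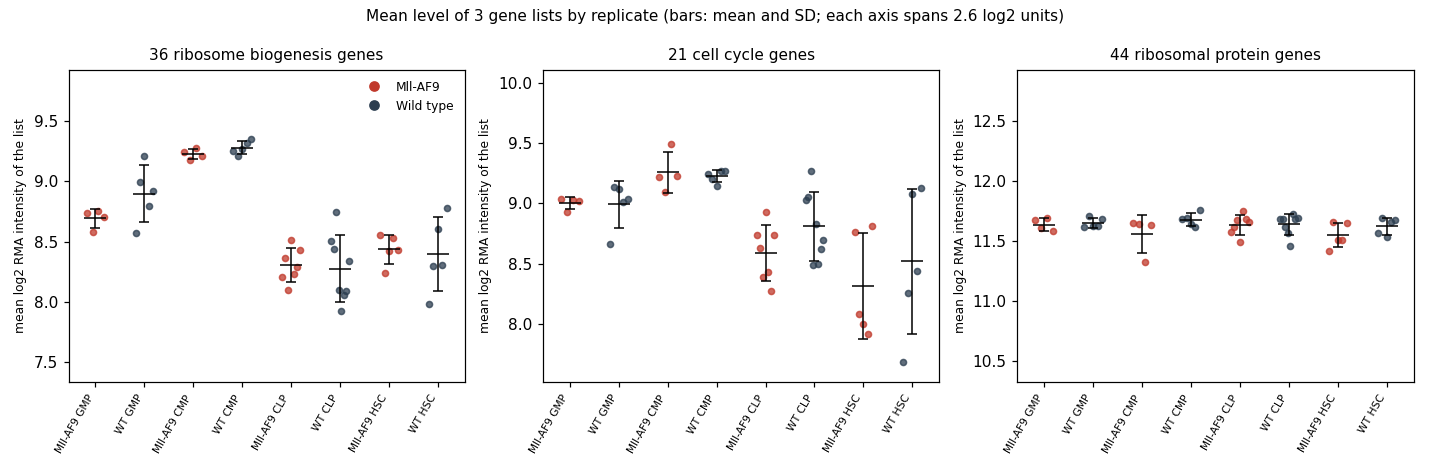
Mean log2 RMA intensity (y axis) of 36 ribosome biogenesis genes, 21 cell cycle genes and 44 ribosomal protein genes in each replicate (points) of the 8 groups (x axis), with the group mean and SD as bars. All 3 panels span the same number of log2 units, and the ribosome biogenesis genes were highest in CMP (9.23 in Mll-AF9, 9.28 in wild type), while ribosomal protein means lay between 11.55 and 11.68 in all groups.

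Against HSC, CMP had the most members called at a limma adjusted p below 0.05 over all 18193 genes. In Mll-AF9, 22 of 36 members were higher in CMP and none was lower, where 10.6% of all genes were called higher and 10.3% lower. In wild type, 29 members were higher in CMP and none was lower, where 11.7% of all genes were called higher and 10.8% lower. The median difference over the members was 0.83 (log2) in Mll-AF9 and 0.91 in wild type, beside -0.01 and 0.01 over all genes. The CMP and HSC ranges did not overlap for 25 members in each genotype, against 9.01% of all genes in Mll-AF9 and 11.0% in wild type. Of the 22 members called in Mll-AF9, 21 (95.5%) were also called in wild type, which is 72.4% of the 29 called there. The groups compared in the 2 genotypes share no library, but 1 model of all 8 groups gave both their spread. The CMP arrays of both genotypes may also share separate processing, so the 2 sets of calls are not independent results. With wild-type libraries restricted to those without Y-linked signal, 12 members were called in wild-type CMP, all higher, with a median difference of 0.73. With the 7 libraries of high 3' minus 5' difference left out the counts were 21 in Mll-AF9 and 26 in wild type.

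GMP differed less uniformly from HSC. In Mll-AF9, 9 members were higher in GMP, where 20.3% of all genes were called higher, and 3 were lower, where 12.5% were called lower. Both shares are close to or below those of all genes and are no result about the members. In wild type, 15 members were higher and none was lower, where 24.6% of all genes were called higher and 13.4% lower. In Mll-AF9 the GMP range lay above that of HSC for 8 members (16.1% of all genes) and below it for 4 (10.2%), and in wild type above it for 8 (15.2%). The median difference was 0.28 in Mll-AF9 and 0.49 in wild type, beside 0.10 and 0.14 over all genes. Of other probe sets of called members above background, 6 of 14 ran the opposite way in Mll-AF9 and 5 of 15 in wild type. For CMP against HSC these were 1 of 19 and 1 of 27. With the mean over all probe sets, 9 members were called in Mll-AF9 GMP and 13 in wild-type GMP. Of the 9 members called higher in Mll-AF9 GMP, 8 (88.9%) were also called in wild type, which is 53.3% of the 15 called there. Wild-type libraries without Y-linked signal gave 5 calls, 4 higher and 1 lower, with a median difference of 0.30, and leaving out the 7 libraries of high 3' minus 5' difference gave 15 calls in Mll-AF9 and 11 in wild type. GMP and CMP were set against the same HSC libraries, so their differences are given side by side and not as independent results.

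Few differences between CLP and HSC passed the threshold. In Mll-AF9, 1 member was called, lower in CLP, where 1.04% of all genes were called lower, 7 members had an unadjusted p below 0.05 (19.3% of all genes had one, close to the members' share), 24 of 36 differences were below 0, and the median difference was -0.13. In wild type, limma called none of 36 members, where 0.313% of all genes were called, 3 members had an unadjusted p below 0.05 (9.61% of all genes had one), and the median difference was -0.12. The Mll-AF9 call was Ncl, described next.

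**Figure D2:**
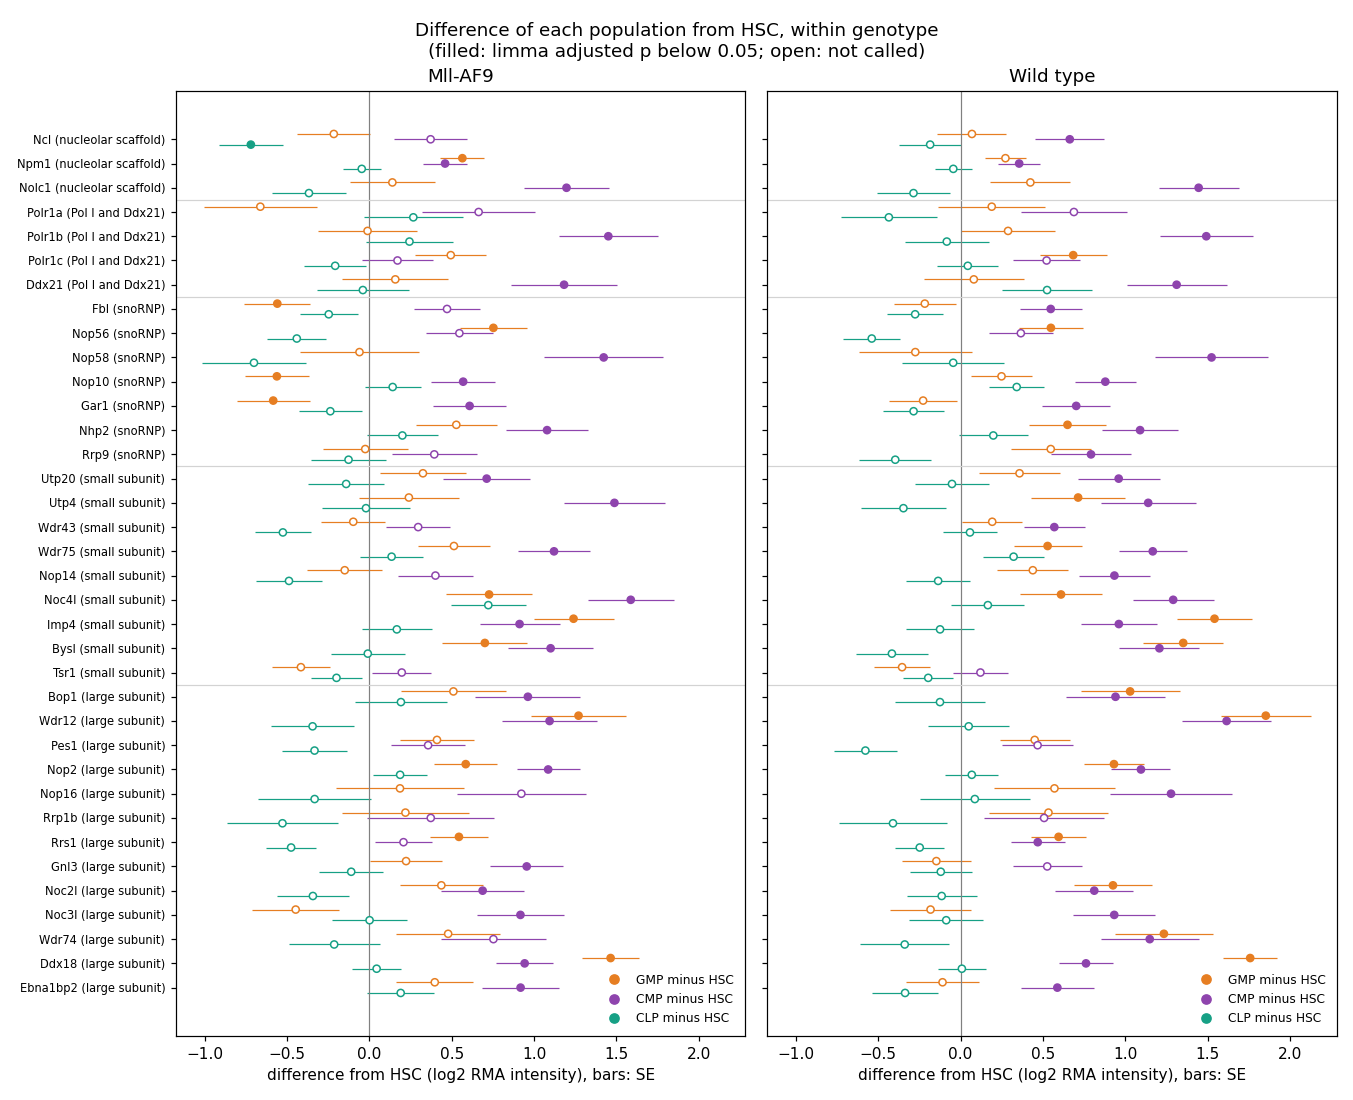
Difference from HSC (x axis, log2 RMA intensity, bars: SE) of GMP, CMP and CLP for each of the 36 genes (rows, ordered by role), Mll-AF9 on the left and wild type on the right. Filled points passed an adjusted p below 0.05, and the CMP points lie above 0 for 36 of 36 genes in each genotype.

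The nucleolar scaffold proteins Ncl, Npm1 and Nolc1 were measured, and the largest of their differences was that of Nolc1. Ncl encodes nucleolin, an abundant nucleolar RNA-binding protein that acts in ribosomal DNA transcription and early processing. Its level was 9.87 to 11.00 in Mll-AF9 CLP with a median of 10.56, against 11.62, 11.26, 11.24, 11.65 and 10.61 in Mll-AF9 HSC. These ranges overlap, and the difference of -0.72 ± 0.19 (SE) had an adjusted p of 0.0262, a call lost without Mll-AF9 CLP replicate 1 or without any 1 of Mll-AF9 HSC replicates 1 to 4 (adjusted p up to 0.0976). In CMP, Ncl differed from HSC by 0.37 ± 0.22 in Mll-AF9, with no call, and was higher by 0.66 ± 0.21 in wild type (adjusted p = 0.0168, and 0.0614 without wild-type HSC replicate 1).

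Npm1 encodes nucleophosmin, a nucleolar chaperone of histones and pre-ribosomal particles that is often mutated in acute myeloid leukaemia. It was 12.56, 12.69, 12.63 and 12.63 in Mll-AF9 GMP and 12.45, 12.53, 12.56 and 12.55 in Mll-AF9 CMP, against 12.21, 11.80, 12.12, 12.10 and 12.07 in Mll-AF9 HSC. Every GMP and CMP replicate lay above every HSC replicate, by 0.56 ± 0.13 on average in GMP (adjusted p = 0.000953) and 0.46 ± 0.13 in CMP (adjusted p = 0.00951). In wild type the difference was 0.27 in GMP, with no call, where replicate 1 at 11.95 lay below most HSC replicates. It was 0.36 ± 0.13 in wild-type CMP (adjusted p = 0.0352), a call lost without wild-type CMP replicate 1, 3 or 4 or HSC replicate 1 or 5 (adjusted p up to 0.165).

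Nolc1 encodes a phosphoprotein that binds snoRNPs and shuttles through the nucleolus. Its level was 9.40, 9.16, 8.92 and 9.20 in Mll-AF9 CMP, against 8.14, 7.23, 8.42, 7.90 and 8.17 in Mll-AF9 HSC. In wild type it was 9.31, 9.43, 9.49, 9.43 and 9.63 in CMP, against 8.26, 8.11, 7.73, 7.51 and 8.45 in HSC. The ranges were apart in both genotypes, and Nolc1 was 2.29-fold higher in Mll-AF9 CMP (adjusted p = 0.000477) and 2.72-fold higher in wild-type CMP (adjusted p = 1.22e-05). In GMP its difference from HSC was 0.14 in Mll-AF9 and 0.42 in wild type, with no call in either.

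Of the 4 genes of RNA polymerase I and its helicase, 2 rose in CMP and stood near their HSC level in GMP. Polr1b, the second largest polymerase I subunit, was 7.84, 7.79, 8.27 and 8.27 in Mll-AF9 CMP, against 6.97, 5.86, 7.16, 6.56 and 6.43 in Mll-AF9 HSC. It was 7.96, 7.79, 7.99, 8.37 and 8.05 in wild-type CMP, against 6.22, 5.56, 6.92, 6.88 and 7.13 in wild-type HSC. No CMP replicate reached down to the HSC range, and the fold was 2.73 in Mll-AF9 (adjusted p = 0.000295) and 2.81 in wild type (adjusted p = 7.88e-05).

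Ddx21, a nucleolar RNA helicase that acts with polymerase I and on snoRNAs, was 2.27-fold higher in Mll-AF9 CMP (adjusted p = 0.00529) and 2.48-fold higher in wild-type CMP (adjusted p = 0.000936). Its GMP difference was 0.16 ± 0.32 in Mll-AF9 and 0.08 ± 0.30 in wild type, with no call. Polr1c, a subunit that polymerases I and III share, was called in GMP and not in CMP. It was 0.68 ± 0.20 higher in wild-type GMP (adjusted p = 0.00717), while its CMP difference of 0.52 was not called. In Mll-AF9 its differences were 0.49 in GMP and 0.17 in CMP, with no call. Polr1a, the largest and catalytic subunit, was called in none of the comparisons with HSC, and its differences ran between -0.66 in Mll-AF9 GMP and 0.69 in wild-type CMP.

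Most but not all snoRNP genes were called higher in CMP, and Nop56 was called there in neither genotype. The box C/D particles methylate ribosomal RNA, with Fbl (fibrillarin) as the methyltransferase and Nop56 and Nop58 as core proteins. The box H/ACA particles, which hold Nop10, Gar1 and Nhp2, convert uridine to pseudouridine. Rrp9 binds a snoRNA needed for the first cleavages of the precursor. In CMP, 4 of the 7 snoRNP genes were higher in Mll-AF9 and 6 of 7 in wild type. In GMP, 1 was higher and 3 were lower in Mll-AF9, and 2 were higher and none lower in wild type. Of all genes, 10.6% were called higher in Mll-AF9 CMP and 11.7% in wild-type CMP, and 20.3% and 24.6% in GMP. The shares called lower in GMP were 12.5% in Mll-AF9 and 13.4% in wild type. With 7 genes, the 1 and the 2 called higher in GMP are near the shares of all genes.

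Nop58 differed most from HSC within this role. Its level was 8.86, 8.86, 9.38 and 8.75 in Mll-AF9 CMP, against 8.25, 6.96, 7.97, 7.43 and 7.09 in Mll-AF9 HSC. Wild-type CMP gave 8.94, 9.05, 9.15, 9.18 and 9.75, against 6.55, 7.60, 8.57, 7.94 and 7.78 in wild-type HSC. All CMP replicates were above all HSC replicates, with folds of 2.68 in Mll-AF9 (adjusted p = 0.00296) and 2.88 in wild type (adjusted p = 0.000678).

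Nop56, its partner in the same particle, showed another pattern. It was 10.76, 10.94, 10.79 and 10.73 in Mll-AF9 GMP, against 9.74, 10.47, 10.01, 9.97 and 10.08 in Mll-AF9 HSC, and the groups did not overlap (1.69-fold, adjusted p = 0.00372). In wild-type GMP it was 1.46-fold higher (adjusted p = 0.0221, and up to 0.0709 without GMP replicate 2 or HSC replicate 1). A second, dimmer probe set of Nop56 ran the opposite way in Mll-AF9 GMP, at -0.81 ± 0.26 (adjusted p = 0.0133 over all probe sets with a single gene), so the direction of Nop56 in GMP depends on the probe set. In CMP its differences of 0.55 in Mll-AF9 and 0.37 in wild type were not called.

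Fbl, Nop10 and Gar1 were the 3 of 36 members called lower in Mll-AF9 GMP than in Mll-AF9 HSC, fewer than the 12.5% of all genes called lower would give. Gar1 was 9.18, 9.24, 9.12 and 9.17 in Mll-AF9 GMP, against 10.13, 9.36, 9.37, 10.17 and 9.78 in Mll-AF9 HSC. Nop10 was 10.97, 11.18, 11.04 and 10.54 in the same GMP, against 11.46, 11.81, 11.42, 11.39 and 11.38 in the HSC. Fbl was 10.14, 9.47, 10.32 and 9.86 in Mll-AF9 GMP, against 10.41, 10.49, 10.42, 10.56 and 10.66 in Mll-AF9 HSC. For each gene all GMP replicates lay below all HSC replicates, with differences of -0.58 ± 0.22 for Gar1 (adjusted p = 0.0369), -0.56 ± 0.20 for Nop10 (adjusted p = 0.0232) and -0.56 ± 0.20 for Fbl (adjusted p = 0.0275).

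These 3 calls were not stable to single libraries. The call of Gar1 was lost without any 1 of the 4 GMP replicates or without HSC replicate 1, 4 or 5 (adjusted p up to 0.111). That of Nop10 was lost without GMP replicate 4 or HSC replicate 2 (up to 0.115), and that of Fbl without GMP replicate 2 or 4 or HSC replicate 5 (up to 0.158). In wild-type GMP the differences were -0.23 for Gar1, 0.25 for Nop10 and -0.22 for Fbl, with no call. In CMP Gar1 was higher by 0.61 in Mll-AF9 and 0.70 in wild type, Nop10 by 0.57 and 0.88, and Fbl by 0.55 in wild type, while its Mll-AF9 difference of 0.47 was not called. Of these 5 calls, that of Nop10 in wild type was kept without any 1 replicate. The wild-type calls of Gar1 (HSC replicates 1 and 2, adjusted p up to 0.0717) and Fbl (7 replicates, up to 0.122), and the Mll-AF9 calls of Gar1 (7 replicates, up to 0.128) and Nop10 (6 replicates, up to 0.0987), were lost without at least 1.

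Nhp2, the third of the H/ACA core proteins, was 11.09, 11.16, 11.03 and 11.12 in Mll-AF9 CMP, against 10.10, 9.90, 9.96, 10.07 and 10.10 in Mll-AF9 HSC. It was 2.11-fold higher there (adjusted p = 0.000956) and 2.13-fold higher in wild-type CMP (adjusted p = 0.000372), with ranges apart in both genotypes. In GMP its difference was 0.53 in Mll-AF9, with no call, and 0.65 ± 0.23 in wild type (adjusted p = 0.0245, and up to 0.121 without GMP replicate 2 or 3 or HSC replicate 1, 2 or 4).

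Among 9 small-subunit assembly factors, most of which belong to the processome that forms on the nascent precursor, 6 were higher in Mll-AF9 CMP and 8 in wild-type CMP. In GMP 3 were higher in Mll-AF9 and 5 in wild type. Of all genes, 10.6% were called higher in Mll-AF9 CMP and 11.7% in wild-type CMP, against 20.3% in Mll-AF9 GMP and 24.6% in wild-type GMP, so 3 of 9 in Mll-AF9 GMP is not far from the share of all genes. Imp4, a processome protein, was 8.12, 7.59, 8.25 and 7.92 in Mll-AF9 GMP, against 6.70, 6.50, 6.85, 6.56 and 7.03 in Mll-AF9 HSC. It was 7.81, 8.46, 8.72, 8.21 and 8.45 in wild-type GMP, against 6.30, 6.32, 7.16, 6.81 and 7.33 in wild-type HSC. GMP and HSC were fully apart in both genotypes, with folds of 2.36 in Mll-AF9 (adjusted p = 8.81e-05) and 2.91 in wild type (adjusted p = 7.69e-07). The Mll-AF9 call was lost in 1 of 19 alternative analyses (limma adjusted p = 0.147), and the wild-type call in 0 of 20. Imp4 is 1 of the 2 genes whose promoter holds CACGTG above.

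Bysl, which encodes bystin, a late small-subunit factor, was 7.93, 7.40, 7.66 and 8.07 in Mll-AF9 GMP, against 7.06, 7.25, 7.28, 6.97 and 6.75 in Mll-AF9 HSC. In wild type it was 8.29, 8.26, 8.51, 8.14 and 8.62 in GMP, against 6.35, 7.11, 7.26, 6.78 and 7.55 in HSC. The 2 ranges were apart in each genotype, and the GMP difference was 0.70 ± 0.26 in Mll-AF9 (adjusted p = 0.0326, and up to 0.104 without GMP replicate 1 or 4 or HSC replicate 4 or 5) and 1.35 ± 0.24 in wild type (adjusted p = 2.17e-05). CMP was higher by 1.10 in Mll-AF9 and 1.21 in wild type.

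Noc4l and Utp4 led the Mll-AF9 CMP differences. Noc4l, which works with Nop14 in small-subunit export in yeast, was 9.68, 9.73, 9.46 and 9.90 in Mll-AF9 CMP, against 8.52, 7.00, 7.74, 8.42 and 8.84 in Mll-AF9 HSC (3.01-fold, adjusted p = 1.07e-05). Utp4, a processome protein whose human form is cirhin, was 8.61, 8.80, 9.45 and 8.78 in Mll-AF9 CMP, against 7.86, 7.23, 7.48, 7.77 and 6.77 in Mll-AF9 HSC (2.81-fold, adjusted p = 0.000261). Every CMP replicate lay above every HSC replicate for both genes. A second, dimmer probe set of Noc4l was lower in Mll-AF9 GMP than in HSC, at -0.96 ± 0.32 (adjusted p = 0.0192 over all probe sets with a single gene), while the one used here was higher by 0.73 ± 0.26 (adjusted p = 0.0286). In wild-type CMP Noc4l was 2.45-fold and Utp4 2.2-fold higher than in HSC.

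Utp20, a large scaffold of the processome, was higher in CMP by 0.71 ± 0.26 in Mll-AF9 (adjusted p = 0.0481) and by 0.96 ± 0.25 in wild type (adjusted p = 0.00313). The Mll-AF9 call was lost without CMP replicate 1, 3 or 4 or HSC replicate 2, 3 or 5 (adjusted p up to 0.136). Wdr75, also of the processome, was higher in CMP by 1.12 ± 0.22 in Mll-AF9 and by 1.17 ± 0.21 in wild type. Tsr1, which acts in late small-subunit maturation, was the one small-subunit factor called in neither genotype in CMP, with differences of 0.20 in Mll-AF9 and 0.12 in wild type. In GMP it stood at -0.42 in Mll-AF9 and -0.36 in wild type, with no call.

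The 13 large-subunit factors held the largest GMP differences. Here 4 were higher in Mll-AF9 GMP and 7 in wild-type GMP, and 8 and 10 were higher in CMP. With 20.3% and 24.6% of all genes called higher in GMP and 10.6% and 11.7% in CMP, 4 of 13 in Mll-AF9 GMP is near the share of all genes. Ddx18, a DEAD-box RNA helicase, was 9.55, 9.63, 9.59 and 9.58 in Mll-AF9 GMP, against 8.22, 7.32, 8.15, 8.35 and 8.56 in Mll-AF9 HSC. In wild type it was 10.55, 9.89, 10.05, 9.83 and 9.85 in GMP, against 7.98, 8.11, 8.54, 8.22 and 8.53 in HSC. All GMP replicates lay far above all HSC replicates in both genotypes, and the fold was 2.76 in Mll-AF9 (adjusted p = 6.79e-09) and 3.39 in wild type (adjusted p = 1.62e-11).

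Wdr12, Bop1 and Pes1 form one complex that is needed to process the large-subunit RNA. Wdr12 was 9.37, 9.41, 9.54 and 9.48 in Mll-AF9 GMP, against 8.47, 8.07, 7.87, 8.46 and 8.04 in Mll-AF9 HSC (2.41-fold, adjusted p = 0.000596). It was 8.91, 9.60, 9.90, 9.66 and 9.61 in wild-type GMP, against 7.03, 7.10, 8.25, 7.68 and 8.34 in wild-type HSC (3.62-fold, adjusted p = 6.3e-07). GMP and HSC did not overlap in either genotype, and CMP was likewise higher, by 1.09 in Mll-AF9 and 1.62 in wild type. A second, dimmer probe set of Wdr12 gave -0.01 ± 0.28 in Mll-AF9 GMP and -0.79 ± 0.27 in wild-type GMP (adjusted p = 0.0183 over all probe sets with a single gene), so the GMP difference of Wdr12 belongs to the brighter probe set.

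Its partners differed less. Bop1 was higher by 1.03 ± 0.30 in wild-type GMP (adjusted p = 0.00591), and its Mll-AF9 GMP difference of 0.51 was not called. In CMP Bop1 was higher by 0.96 in Mll-AF9 and 0.94 in wild type, calls that were lost without CMP replicate 1, 2 or 3 or HSC replicate 3 or 4 in Mll-AF9 (adjusted p up to 0.0672) and without HSC replicate 2 in wild type (0.0897). Pes1 was called in no comparison with HSC, with GMP differences of 0.41 in Mll-AF9 and 0.45 in wild type and CMP differences of 0.36 and 0.47.

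Rrs1, which brings a ribosomal RNA and its proteins to the large subunit, was higher in GMP by 0.54 ± 0.18 in Mll-AF9 (adjusted p = 0.0144, and 0.054 without HSC replicate 2) and by 0.60 ± 0.17 in wild type (adjusted p = 0.00385). Nop2, an RNA cytosine methyltransferase and the second gene with CACGTG above, was higher in GMP and in CMP of both genotypes, by 0.58 and 1.09 in Mll-AF9 and by 0.93 and 1.10 in wild type. Its Mll-AF9 GMP call was lost without GMP replicate 3 or HSC replicate 4 (adjusted p up to 0.0674). Gnl3, which encodes the GTPase nucleostemin, was higher by 0.96 ± 0.22 in Mll-AF9 CMP (adjusted p = 0.00108), and its wild-type CMP difference of 0.53 was not called. In GMP it was at 0.22 in Mll-AF9 and -0.15 in wild type, with no call. Noc2l was higher by 0.93 ± 0.24 in wild-type GMP (adjusted p = 0.00174), yet its second probe set gave -1.03 ± 0.34 there (adjusted p = 0.015 over all probe sets with a single gene).

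**Figure D3:**
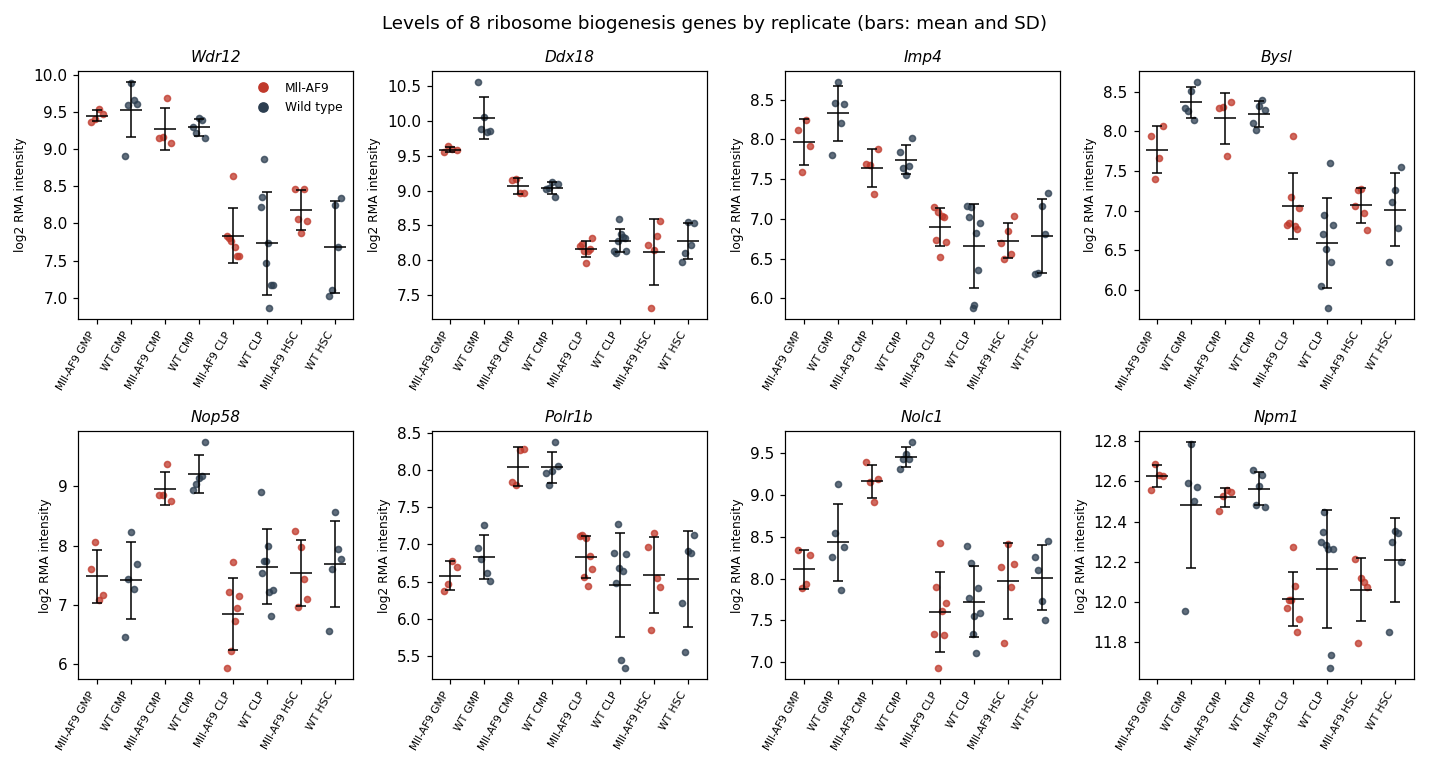
Log2 RMA intensity (y axis) of 8 genes in every replicate (points) of the 8 groups (x axis), with the group mean and SD as bars. Wdr12, Ddx18, Imp4 and Bysl are high in GMP and CMP, while Nop58, Polr1b and Nolc1 are highest in CMP and lower in GMP.

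The pattern differed between GMP and CMP of wild type. Of 36 members, 14 were lower in GMP than in CMP, where 11.4% of all genes were called lower, and 2 were higher, where 20.3% were called higher. The GMP range lay below that of CMP for 14 members (12.6% of all genes) and above it for 1 (20.7%). The median difference was -0.46 over the members and 0.13 over all genes. Nop58 was lowest at -1.80 ± 0.34, or 3.48-fold lower in GMP (adjusted p = 6.02e-05), with GMP at 6.45, 7.44, 8.22, 7.27 and 7.69. The lowest CMP value was 8.94, so the ranges do not overlap. Ddx21 at -1.23, Polr1b at -1.20, Noc3l at -1.12 and Nolc1 at -1.02 followed, each with ranges apart.

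By role, 2 of the 4 polymerase I genes (Polr1b and Ddx21), 4 of 7 snoRNP genes (Nop58, Gar1, Fbl and Nop10) and 2 of 3 nucleolar scaffolds (Nolc1 and Ncl) were lower in GMP. Of 9 small-subunit factors 3 were lower (Wdr75, Noc4l and Tsr1), and of 13 large-subunit factors 3 (Noc3l, Ebna1bp2 and Gnl3). Ddx18 was higher in GMP, at 1.00 ± 0.16 (adjusted p = 4.81e-06), with all 5 GMP replicates above all 5 CMP replicates. Imp4 was higher by 0.58 ± 0.23 (adjusted p = 0.0476), but its ranges overlapped and the call was lost without any 1 of 8 replicates (adjusted p up to 0.128). A second probe set of Imp4 gave -0.75 ± 0.26 here and a second, dim one of Ebna1bp2 gave 0.47 ± 0.15 (adjusted p = 0.024 and 0.0134 over all probe sets with a single gene), so the directions of Imp4 and Ebna1bp2 depend on the probe set. Of 20 other probe sets of the called members above background, 6 ran the opposite way. Of the 16 calls, 9 were kept without any 1 replicate. Those of Ncl, Wdr75, Noc4l, Gnl3 and Ebna1bp2 were lost without wild-type GMP replicate 1 (adjusted p up to 0.16 over the libraries left out), and that of Tsr1 without GMP replicate 4 or 5 or CMP replicate 3 (0.0689). Wild-type libraries without Y-linked signal gave 7 calls, with a median difference of -0.55. Population and processing cannot be told apart here, as for every comparison with CMP.

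**Figure D4:**
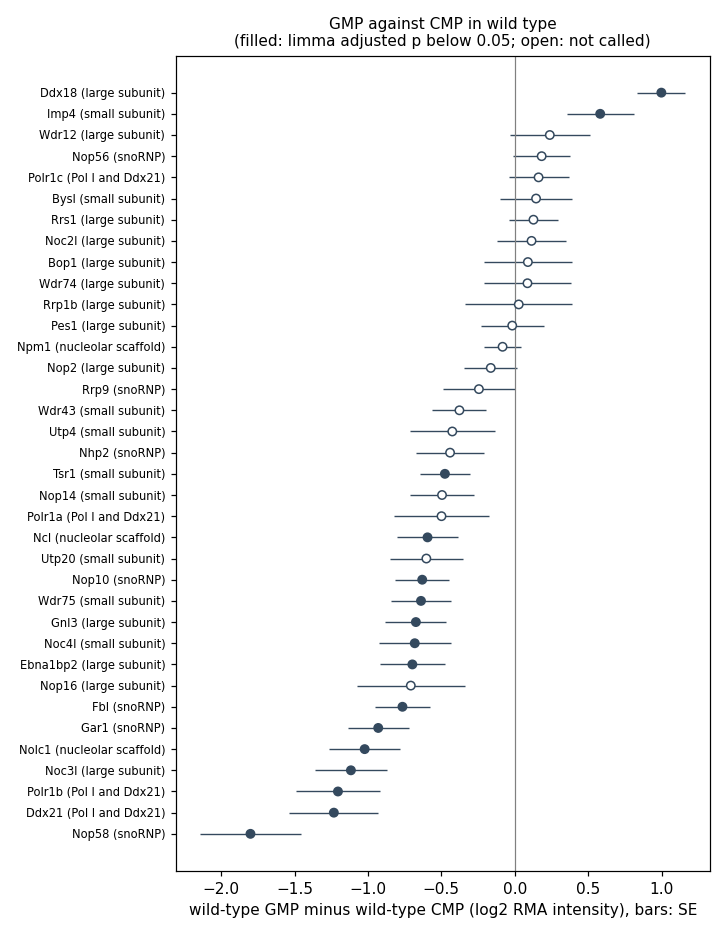
Wild-type GMP minus wild-type CMP (x axis, log2 RMA intensity, bars: SE) for 36 genes sorted by difference (rows), with filled points at an adjusted p below 0.05. Nop58 (-1.80), Ddx21 and Polr1b are at the low end and Ddx18 (1.00) at the high end.

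GMP and CLP of wild type, whose intensities were deposited in one format, also differed in these genes. Of 36 members, 18 were higher in GMP and none was lower, where 28.3% of all genes were called higher and 14.7% lower. The GMP range lay above that of CLP for 11 members (11.2% of all genes), and the median difference was 0.53 against 0.15 over all genes. Wdr12 (1.81), Bysl (1.77), Ddx18 (1.75), Imp4 (1.67) and Wdr74 (1.57) had the largest differences, and the GMP and CLP replicates of these 5 genes did not overlap. Pes1, called in no comparison with HSC, was higher in GMP than in CLP by 1.03 ± 0.19 (adjusted p = 3.21e-05), with 8.34 to 9.07 in GMP and 6.75 to 8.22 in CLP. Nop56 was higher by 1.09 ± 0.17 and Rrs1 by 0.84 ± 0.15. Wild-type libraries without Y-linked signal gave 11 calls, with a median difference of 0.65. The 18 called members had 16 other probe sets above background, of which 5 ran the opposite way. Another probe set of Noc2l was called lower in GMP. With the mean over all probe sets of a gene, 18 members were called, all higher.

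Mll-AF9 and wild type were compared next within each population, the comparison the study was made for. No member was called in any of the 4 populations by limma. The share of all genes called was 0.269% for GMP, 0.423% for CMP, 0.346% for CLP and 0.055% for HSC. Members with an unadjusted p below 0.05 numbered 6 for GMP, 1 for CMP, 1 for CLP and 0 for HSC, where 9.66%, 6.74%, 9.3% and 6.4% of all genes had one. The median difference over the 36 genes, Mll-AF9 minus wild type, was -0.21 for GMP, -0.04 for CMP, 0.05 for CLP and 0.05 for HSC, against -0.02, 0.00, 0.06 and 0.01 over all genes. In data simulated from these samples, 70% of genes changed by 1 log2 unit were recovered for GMP, 91% for CMP, 69% for CLP and 41% for HSC. The simulation drew independent normal noise for each gene, and other genes were changed by 2 log2 units in the same data. An adjusted p depends on how many genes change and by how much. These shares therefore belong to that setting and may be lower in the real data. The number of arrays limits what smaller differences could be detected.

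In GMP, 26 of 36 differences were below 0. The smallest p was that of Polr1a, at 5.91, 5.35, 6.05 and 6.75 in Mll-AF9 GMP, against 7.10, 6.95, 6.93, 6.86 and 7.10 in wild-type GMP. All Mll-AF9 values lay below all wild-type values, and replicate 4 came closest. The difference was -0.97 ± 0.23 with a limma adjusted p of 0.127. Over 9 fits that each left out 1 replicate, the adjusted p ran from 0.026 (without Mll-AF9 GMP replicate 4) to 0.341. It was below 0.05 in 1 of the 9.

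Bop1 was 7.56, 6.87, 7.27 and 7.38 in Mll-AF9 GMP, against 7.83, 7.80, 8.03, 8.03 and 8.16 in wild-type GMP. Bysl, with the values given above, lay between 7.40 and 8.07 in Mll-AF9 GMP and between 8.14 and 8.62 in wild-type GMP. Neither pair of ranges overlapped, with differences of -0.70 ± 0.18 for Bop1 (adjusted p = 0.166) and -0.60 ± 0.18 for Bysl (adjusted p = 0.278). Without wild-type GMP replicate 1, which had a high 3' minus 5' difference, Bop1 reached an adjusted p of 0.0439. This was 1 of 9 fits that each left out 1 replicate, and over these the adjusted p of Bop1 ran up to 0.403. For Bysl it ran from 0.105 to 0.534. Ranges were apart for 5 members below wild type (Polr1a, Bysl, Bop1, Gar1 and Ddx18) and 1 above it (Rrs1), where 2.14% and 2.22% of all genes had such ranges.

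The median shift in GMP was smaller among replicates matched for Y-linked signal. All 4 Mll-AF9 GMP replicates lacked it, and so did 2 of the 5 wild-type replicates. With only those 2 wild-type replicates the median over the 36 genes was -0.06, and with the Y-linked level as a covariate it was also -0.06. The differences of single genes were as large in that restricted set, at -0.97 for Polr1a (adjusted p = 0.162), -0.83 for Bop1 (adjusted p = 0.0844) and -0.61 for Bysl (adjusted p = 0.221), and with the covariate they were -0.99, -0.82 and -0.62, none of them called. Rrp9 was the 1 member called in the restricted set. The part of Y-linked signal in the result was not tested beyond these values.

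**Figure D5:**
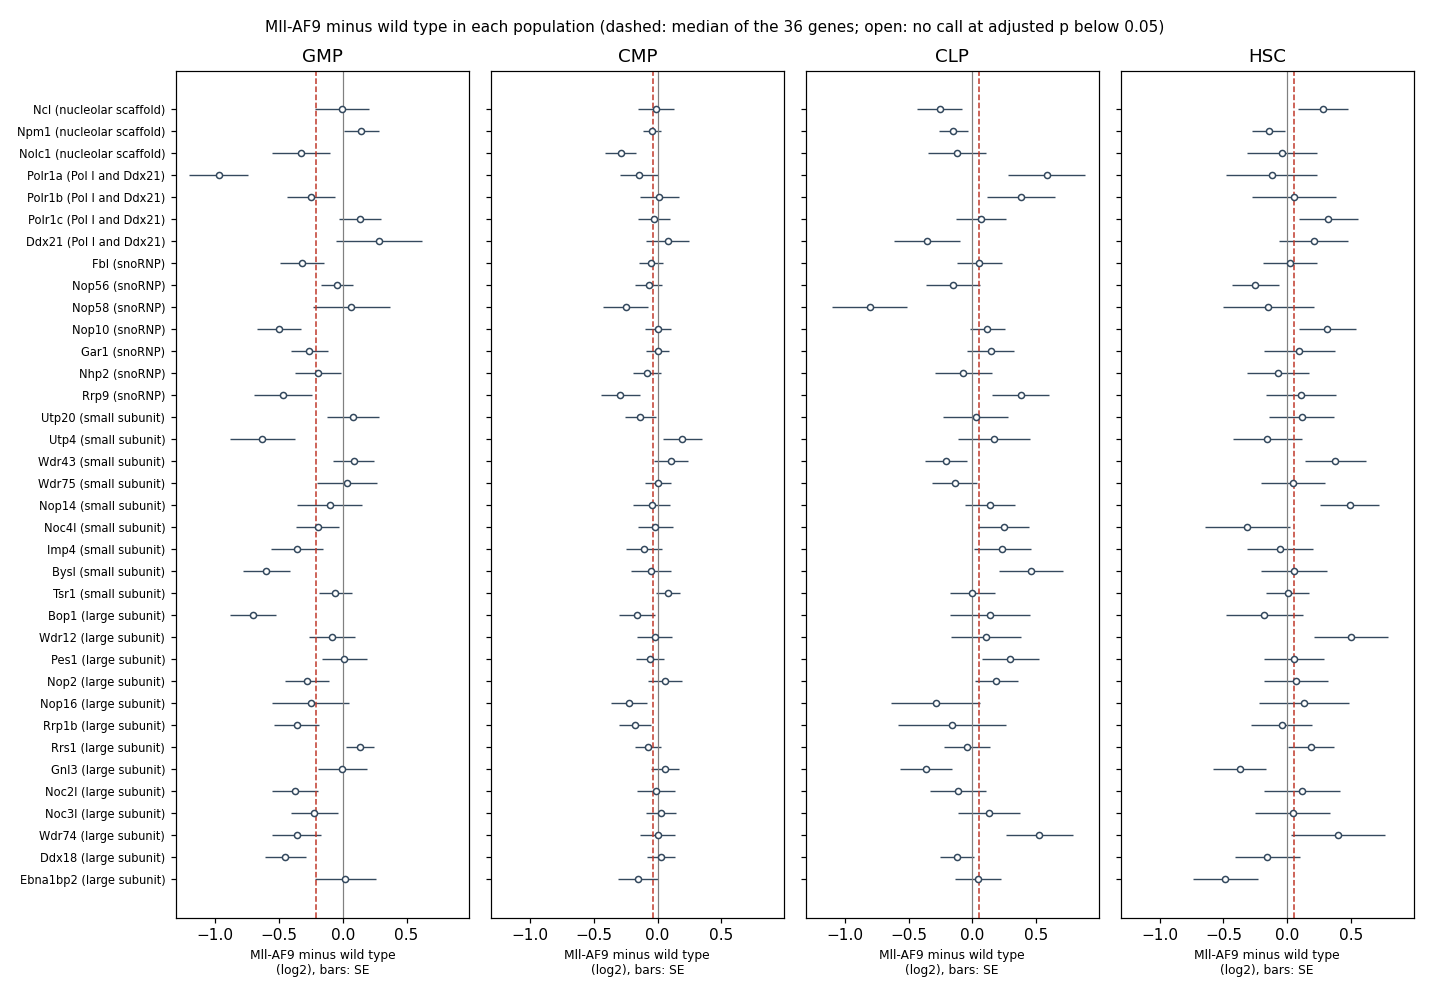
Mll-AF9 minus wild type (x axis, log2 RMA intensity, bars: SE) for 36 genes (rows, ordered by role) in GMP, CMP, CLP and HSC (panels), with the median of the 36 as a dashed line. All points are open because none passed an adjusted p below 0.05, and the median was -0.21 in GMP and within 0.05 of 0 in the other populations.

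In CMP the replicates lay close together and the differences were small, between -0.29 and 0.19. Of the CMP replicates, 8 are means of 2 arrays, unlike those of the other populations. Nolc1 had the smallest p, with 9.40, 9.16, 8.92 and 9.20 in Mll-AF9 CMP, against 9.31, 9.43, 9.49, 9.43 and 9.63 in wild-type CMP, a difference of -0.29 ± 0.12 (adjusted p = 0.66). Rrp9 stood at -0.29 ± 0.15 and Nop16, a large-subunit factor, at -0.22 ± 0.14, with adjusted p of 0.794 and 0.889. All 3 overlapped between genotypes.

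In CLP, Nop58 was 5.92 to 7.71 with a median of 6.93 in Mll-AF9, against 6.80 to 8.91 with a median of 7.63 in wild type. Its difference of -0.81 ± 0.29 had an adjusted p of 0.381. Wdr74, which acts with a remodelling ATPase of large-subunit maturation, was at 0.52 ± 0.26 (adjusted p = 0.563) and Polr1a at 0.58 ± 0.30 (adjusted p = 0.578). These ranges overlapped, with Polr1a at 5.95 to 7.59 in Mll-AF9 CLP and 5.46 to 7.09 in wild-type CLP. All Mll-AF9 CLP samples, and wild-type CLP replicate 1, had a source name of CMP. The 3' minus 5' difference was also higher in Mll-AF9 CLP, at a mean of 4.18 against 3.69. Limma called no member in CLP with that difference as a covariate. The parts of genotype, source name and RNA quality cannot be told apart here.

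In HSC, Nop14, a processome protein, was 6.47, 6.63, 6.88, 6.84 and 6.47 in Mll-AF9, against 6.06, 6.25, 6.45, 5.67 and 6.44 in wild type. The ranges were just apart, which was so for 0.704% of all genes, and the difference was 0.49 ± 0.23 (adjusted p = 0.777). Ebna1bp2, a large-subunit factor, stood at -0.49 ± 0.26 (adjusted p = 0.777) and Gnl3 at -0.37 ± 0.21 (adjusted p = 0.795), both with overlapping ranges.

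Whether the genotype effect differed among the 4 populations was tested with an F test over the interaction contrasts. No member was called, where 0.214% of all genes were, and 3 members had an unadjusted p below 0.05, where 7.37% of all genes had one. Polr1a had the smallest p (0.00935, adjusted p = 0.48), with its genotype effect higher than that in GMP by 0.83 in CMP, 1.55 in CLP and 0.85 in HSC. Bysl (adjusted p = 0.596) and Nop10 (adjusted p = 0.635) followed.

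Other genes were counted from lists for context. Of 126 other ribosome biogenesis genes, 59 were higher and 2 lower in Mll-AF9 CMP than in HSC, and 67 were higher and none lower in wild-type CMP. In GMP, 38 were higher and 16 lower in Mll-AF9, and 57 were higher and 10 lower in wild type. The shares of all genes called higher and lower were 10.6% and 10.3% in Mll-AF9 CMP, 11.7% and 10.8% in wild-type CMP, 20.3% and 12.5% in Mll-AF9 GMP, and 24.6% and 13.4% in wild-type GMP, so the counts of lower genes in GMP are at or below the share of all genes. Pno1, a small-subunit maturation factor, was 3.49-fold higher in Mll-AF9 CMP and 3.17-fold higher in wild-type CMP. Esf1 was lower by -3.19 ± 0.38 in Mll-AF9 GMP and by -2.60 ± 0.36 in wild-type GMP, where its means of 4.71 and 4.86 lay close to background, and Nsa2, a large-subunit factor, by -2.69 ± 0.30 in wild-type GMP. In Mll-AF9 CLP, Dkc1, the pseudouridine synthase that works with Nop10, Gar1 and Nhp2, was lower than in HSC by -0.82 ± 0.23 (adjusted p = 0.036).

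The ribosomal protein genes themselves did not move in one direction. Of 44 measured among 79 listed, 5 were higher and 4 lower in Mll-AF9 CMP than in HSC (median -0.05). In wild-type CMP 2 were higher and 2 lower (median 0.02). In GMP 10 were higher and 4 lower in Mll-AF9 (median 0.01), and 8 were higher and 8 lower in wild type (median -0.02). Of all genes, 10.6% were called higher and 10.3% lower in Mll-AF9 CMP, and 11.7% and 10.8% in wild-type CMP. In GMP these shares were 20.3% and 12.5% in Mll-AF9, and 24.6% and 13.4% in wild type. The 10 of 44 in Mll-AF9 GMP is thus near the share of all genes. Rpl14 was higher in all 4 of these population comparisons, by 0.89 in Mll-AF9 CMP, 0.93 in wild-type CMP, 1.00 in Mll-AF9 GMP and 1.25 in wild-type GMP. The mean over the 44 genes was 11.55 to 11.68 in all groups.

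Cell cycle genes were also called higher in part. Of 21 measured, 14 were higher in Mll-AF9 CMP than in HSC and 8 in wild-type CMP, none lower, where 10.6% and 11.7% of all genes were called higher. In GMP 12 were higher and 1 lower in Mll-AF9 (20.3% and 12.5% of all genes), and 9 were higher and 2 lower in wild type (24.6% and 13.4%). Their mean level was 7.91 to 8.81 over Mll-AF9 HSC replicates and 7.69 to 9.13 over wild-type HSC replicates, against 9.09 to 9.49 in Mll-AF9 CMP and 9.15 to 9.27 in wild-type CMP. Mki67, a proliferation marker, was higher by 0.82 ± 0.23 in Mll-AF9 CMP (adjusted p = 0.00712), and its differences were 0.44 in wild-type CMP, 0.17 in Mll-AF9 GMP and -0.41 in wild-type GMP, with no call. The part of cell cycle genes in the members' differences was not tested.

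Of 11 MYC family and partner genes, Mycn was lower than in HSC in CMP, by -1.42 ± 0.36 in Mll-AF9 and -1.75 ± 0.34 in wild type. In GMP all replicates of both genotypes lay below background, with means of 3.93 in Mll-AF9 GMP and 4.13 in wild-type GMP, against 8.33 in Mll-AF9 HSC and 8.09 in wild-type HSC. No size is given for that difference, since the GMP level has only an upper bound. Myc was higher by 0.71 ± 0.24 in wild-type CMP (adjusted p = 0.0284), and its other differences from HSC, 0.57 in Mll-AF9 CMP, 0.14 in Mll-AF9 GMP and -0.16 in wild-type GMP, were not called. No gene of these context lists was called between Mll-AF9 and wild type in any population.

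The members varied together across replicates. Over 43 replicates, the Pearson correlation of a member with the mean of the other members had a median of 0.738, ranging from 0.288 (Tsr1) to 0.878 (Nolc1), and was positive for 36 of 36. The median for 18157 other genes was 0.01. After group means were subtracted, the median was 0.519, lowest for Ddx18 at 0.0337 and highest for Nhp2 at 0.802. Replicates of one group share their sort and arrays, so these values are descriptive. Ddx18 thus combined the smallest p of all members in GMP with the least shared variation between replicates.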

How the data were processed

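Sorted GMP, CMP, CLP and HSC of Mll-AF9 and wild-type mice were measured on 51 Affymetrix arrays. The deposited values are linear intensities made by RMA, per the submitters' processing notes, which give no version. They were taken to log2, and the 2 runs of each of 8 CMP replicates were averaged, leaving 43 replicates. Groups followed the sample titles. The annotation gave 1 gene to 34945 of 45101 probe sets and several or none to 10092, and 64 were controls. Each gene was represented by its brightest probe set. Background was the 95th percentile of the mean levels of 114 genes of families silent in blood cells (keratin-associated proteins and receptors for smell, taste and pheromones), and 53.4% to 60.3% of genes exceeded it per replicate.

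Genotypes were compared within each population, and populations and the interaction in one model of 8 groups, with lmFit and eBayes with an intensity trend (limma 3.58.1, R 4.3.3). P-values were adjusted over 18193 genes by Benjamini-Hochberg, with calls below 0.05. The procedure was tested on simulated data. The members, gene lists and tests were chosen with earlier results of these data known. Named were all members by role, those with the smallest p or the largest called difference per comparison, and a list of 20 genes, of which 19 were measured. Alternatives were no intensity trend, the mean over all probe sets, a background filter, quantile normalization, array weights, single CMP runs, or every run kept with a random term for the replicate (duplicateCorrelation), one model of all groups for the genotypes, covariates for Y-linked signal and for the 3' minus 5' difference, a replicate block and leaving out each replicate. Of these, 2 restricted sets of replicates were added after the data were seen. The 3' minus 5' difference is the mean over the Actb and Gapdh control probe sets. The arrays give no read depth, and their number limits the precision.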

Additional observations from a re-analysis of the deposited data

Results flagged for a closer look

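In 15 of the 288 sets of replicates formed by 36 genes and 8 groups, 1 replicate stood far from the others of its group. About 1 in 20 such sets would be picked out by chance alone. Mll-AF9 CMP replicate 3 appeared 3 times, with Ncl at 12.19 (the others 11.44 to 11.51), Wdr12 at 9.69 (9.08 to 9.17) and Bysl at 7.68 (8.30 to 8.37). In the same group Rrp1b was 8.43 in replicate 1, against 7.97 to 8.00.

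In Mll-AF9 CLP, replicate 4 was high for Bysl at 7.94 (the others 6.77 to 7.17) and for Wdr12 at 8.64 (7.56 to 7.83), and replicate 3 was low for Nop16 at 4.26 (5.98 to 6.58). Both had a 3' minus 5' difference above 4, at 4.93 in replicate 4 and 4.32 in replicate 3. Ddx21 was 7.44 in Mll-AF9 GMP replicate 2 (8.04 to 8.13), and Nop10 was 11.81 in Mll-AF9 HSC replicate 2 (11.38 to 11.46).

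In wild type, GMP replicate 1, which also had a 3' minus 5' difference above 4, was high for Gar1 at 9.77 (the others 9.32 to 9.39) and low for Nop16 at 5.57 (6.92 to 7.44). HSC replicate 1, again above 4, was low for Wdr75 at 7.54 (8.21 to 8.34). Noc4l was 9.13 in HSC replicate 5 (8.03 to 8.33), Ncl was 10.02 in CLP replicate 7 (10.67 to 11.20), and Pes1 was 8.998 in CMP replicate 5 (8.69 to 8.76).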

How the results depend on the processing

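Dropping the intensity trend kept every count of members called within 1.5 times its main value. Between Mll-AF9 and wild type in GMP, where none was called, array weights gave 2 calls (Polr1a and Bop1), replicates with a 3' minus 5' difference of 4 or less gave 1 (Bop1), and replicates without Y-linked signal gave 1 (Rrp9). For the interaction, array weights gave 1 call. Replicates without Y-linked signal gave 5 calls in wild-type GMP against HSC, 12 in wild-type CMP against HSC, 11 in GMP against CLP and 7 in GMP against CMP. Array weights gave 19 calls in Mll-AF9 GMP against HSC. In Mll-AF9 CLP against HSC, with 1 call, the mean over all probe sets gave 2, the background filter 2, array weights 3, the 3' minus 5' covariate 0 and the restricted 3' minus 5' set 2. With the mean over all probe sets, Nop56 reversed in GMP against HSC, to -0.030 in Mll-AF9 and -0.022 in wild type, as did Noc2l in wild-type GMP against HSC (-0.054) and Imp4 in wild-type GMP against CMP (-0.10). The cause of these changes was not tested, beyond smaller sample sizes in the restricted sets.

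Leaving out 1 replicate gave 0 to 1 calls between genotypes in GMP, 0 in the other populations and the interaction, 8 to 12 in Mll-AF9 GMP and 10 to 19 in wild-type GMP against HSC, 17 to 21 in Mll-AF9 CMP and 20 to 28 in wild-type CMP, 0 to 3 in Mll-AF9 CLP and 0 in wild-type CLP, 15 to 21 in GMP against CLP and 11 to 17 in GMP against CMP. Within each population, same-numbered Mll-AF9 and wild-type replicates did not deviate together in every pair (correlations -0.29 to 0.188). The numbers were therefore not taken to pair the genotypes. Whether they pair populations of 1 genotype was not tested. In wild-type GMP and CMP, replicates 1 to 3 had Y-linked signal and 4 and 5 lacked it. Wild-type CLP and HSC had other orders. With the replicate block, 13 members were called in Mll-AF9 GMP and 17 in wild-type GMP against HSC, 20 and 30 in CMP, 1 and 0 in CLP, 17 in GMP against CLP, 15 in GMP against CMP, and 0 between genotypes and in the interaction. Of 113 called member results, 48 were kept under every alternative.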

Other observations

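Some assembly factors outside the set differed by more than any member did in the same comparison. The wild-type GMP mean of Esf1 lay close to background, as given above, so the sizes of its differences are uncertain. In GMP, Esf1 and Nsa2 were lower than in CLP by -2.76 ± 0.33 and -2.36 ± 0.27 in wild type, and lower than in CMP by -3.26 ± 0.36 and -2.38 ± 0.30 (limma, adjusted p of at most 5.71e-09 for the first pair and 2.88e-08 for the second). Utp23 was higher in wild-type GMP than in HSC by 2.39 ± 0.36 (adjusted p = 8.61e-07) and Gnl2 higher in Mll-AF9 GMP than in HSC by 1.84 ± 0.29 (adjusted p = 2.5e-06). Mlx, a partner in the MYC and MAX network, was higher in wild-type GMP than in CLP by 1.60 ± 0.18 (adjusted p = 2.06e-09). Of the cell cycle genes, Birc5 was higher in GMP than in HSC by 2.31 ± 0.31 in Mll-AF9 and 1.79 ± 0.29 in wild type, while Mcm5, a replication licensing factor, was lower in wild-type GMP by -1.44 ± 0.19. These genes were picked by the size of their difference.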
